A study of Homo sapiens with 9 samples.

Results

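The genes described here are 59 enzymes and partners that write or remove methyl groups on DNA and histones, or that take acetyl groups off histones and other proteins. They were taken by symbol from the expression table: HDAC followed by a number, SIRT1 to SIRT7, the KDM1 to KDM8 and KMT2 to KMT5 symbols, DNMT1, DNMT3A, DNMT3B and DNMT3L, TET1 to TET3, EZH1, EZH2, EED, SUZ12, SUV39H1 and SUV39H2. The symbol rule uses no expression value, although earlier results of these data were known when it was written, and the 59 were among 19932 gene symbols and 2363 assembled loci, 22295 entries in all. The deacetylases and sirtuins are not methylation enzymes and came in by the same symbol rule. Of the 59, 55 had a mean of at least 0.1 FPKM (a fragment count scaled for transcript length and for the total of the library) over the 9 libraries and were tested. DNMT3L, KDM4E and KDM4F were listed at 0 in all 9 libraries, and KDM5D, which lies on the Y chromosome, was counted but its level is not given.

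DNA methyltransferases place methyl groups on cytosine, with DNMT1 copying the pattern after replication and DNMT3A and DNMT3B setting new marks, and the TET dioxygenases oxidize those groups as a step toward their removal. On histones, the Polycomb repressive complex 2 (PRC2) with EZH2 or EZH1 methylates lysine 27 of histone H3 (H3K27) and is tied to silent genes, whereas the KMT2 enzymes methylate lysine 4 (H3K4) at promoters and enhancers. Demethylases of the KDM families reverse such marks at particular lysines, and histone deacetylases work in corepressor complexes. In the nervous system these enzymes are known for parts in holding or changing cell identity.

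U251 is a long-established line of human glioblastoma cells. The cells had been infected with lentivirus carrying a short hairpin RNA against luciferase, the control named sh-Luci, or against PTBP1, named sh-Ptbp1. PTBP1 encodes an RNA-binding protein that regulates splicing, and its knockdown was studied as a way to move glioblastoma cells toward a neural state. Each group had 3 libraries, with sh-Luci-3d and sh-Ptbp1-3d taken 3 days after infection and sh-Ptbp1-7d taken 7 days after it. By the study's methods a single hairpin against PTBP1 was taken forward, all groups carried the lentiviral vector, and the cells were moved to a neuronal induction medium on the second day after infection. No sh-Luci library of day 7 was analysed here, so knockdown, time after infection and time in the medium cannot be told apart in either comparison with sh-Ptbp1-7d. The labels do not say that libraries of a group came from separate cultures, and the p-values then measure only the spread between these libraries.

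PTBP1, the targeted gene, was at 111, 112 and 124 FPKM in the sh-Luci-3d libraries, 66.2, 64.4 and 61.0 in sh-Ptbp1-3d and 49.7, 50.7 and 51.0 in sh-Ptbp1-7d. It fell at day 3 (log2 fold change -0.85 ± 0.073 SE, adjusted p = 0.00314, limma), a call that was lost when these groups were fitted alone (adjusted p = 0.0821). The deposited values hold no counts, so how deeply each library was sequenced is unknown. Glioma markers were led by VIM, at a mean of 4168 FPKM in sh-Luci-3d, while the astrocyte marker GFAP was at 0.347 FPKM there. The summed level of 11 glial and glioma markers ran from 4462 to 4588 FPKM in sh-Luci-3d, 4586 to 4881 in sh-Ptbp1-3d and 1395 to 1517 in sh-Ptbp1-7d, and that of 12 neuronal markers from 489 to 526, 561 to 577 and 257 to 264. The glial sum was carried by VIM, at a mean of 4381 FPKM in sh-Ptbp1-3d and 1169 in sh-Ptbp1-7d. The neuronal sum was carried by NEFL and TUBB3, while MAP2 rose from a mean of 20.3 FPKM in sh-Ptbp1-3d to 38.9 in sh-Ptbp1-7d. In sh-Ptbp1-3d replicate 3, STMN2 read 11.5 FPKM and was at 0 in every other library. There DCX read 2.14 against at most 0.035, and ELAVL3 read 1.47 against at most 0.022. FABP7, of the glial list, read 15.0 against at most 2.19. Their part in the results was not tested, and counts of members without that library are given. Between day 7 and day 3 of the knockdown, 2 glial markers rose (S100B and SLC1A3) and 2 fell (CD44 and VIM) of 9 tested. In the same comparison 1 neuronal marker rose and 3 fell of 10. By limma 0 of the 2 blood and immune markers tested were called. Both had an unadjusted p under 0.05, where 49.9% of all genes passed 0.05 even after adjustment. Of 8 blood and immune markers, AIF1 and CD3E were at 0 in every library and the sum of the 8 reached at most 1.25 FPKM. In these bulk libraries fewer cells of a type and less RNA per cell cannot be told apart.

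Among the 55 members, sh-Luci-3d replicate 3 and sh-Ptbp1-7d replicate 3 stood apart from their groups. The level in sh-Luci-3d replicate 3 was at least 0.3 away, on the log2 scale, from the mean of its group's other libraries for 25 members, and in sh-Ptbp1-7d replicate 3 for 17 members, against 3 to 10 members in the remaining 7 libraries. The departures went with transcript length in sh-Ptbp1-7d replicate 3, and only in part in sh-Luci-3d replicate 3, as the plot of members by transcript length shows. Of the 28 members whose longest annotated transcript has 5326 bases or more, 27 were lowest of their group in sh-Ptbp1-7d replicate 3 and 18 in sh-Luci-3d replicate 3. Of the 27 shorter members, 12 and 9 were lowest there. Highest of their group in these libraries were 1 and 9 of the longer members and 10 and 13 of the shorter ones. In sh-Ptbp1-3d replicate 3 the counts of lowest members were alike, at 18 of 28 longer and 17 of 27 shorter members. Over all genes whose mean reached 1 FPKM the same held, with a median departure of -0.21 for 2938 long genes and -0.00096 for 8196 shorter ones in sh-Ptbp1-7d replicate 3, and of -0.24 and 0.033 in sh-Luci-3d replicate 3. The part of transcript length in the results below was not tested, and values without these libraries are given where a call turns on them. Where the library left out is the one furthest from its group, a call gained that way is a description only.

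**Figure D1:**
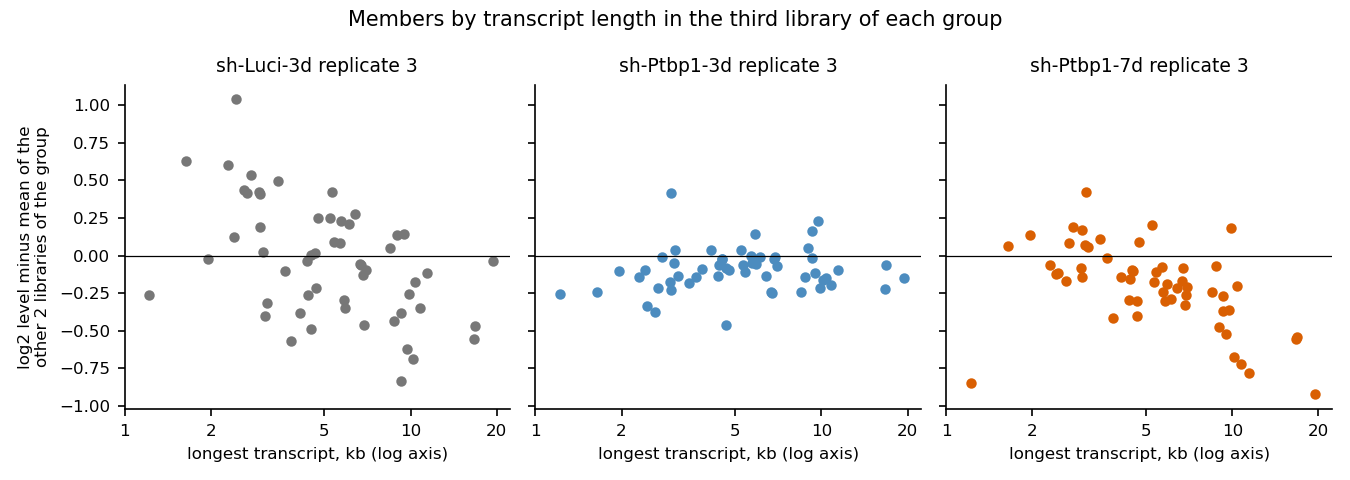
Each point is one of the 55 tested members, with its longest GENCODE transcript in kilobases on a log axis and, on the vertical axis, its log2 level in the third library of each of the 3 groups minus the mean of its group's other 2 libraries. Points fall toward longer transcripts in the panels of sh-Luci-3d and sh-Ptbp1-7d, where 18 and 27 of the 28 longer members were lowest of their group. Of these 28, 9 and 1 were highest. Points lie without such a slope in the panel of sh-Ptbp1-3d.

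The comparison of sh-Ptbp1-3d with sh-Luci-3d asks what knockdown did to these enzymes by day 3, and no member passed the test. The mean levels in sh-Luci-3d ran from 0.434 FPKM for SIRT4, a mitochondrial sirtuin, to 68.3 for HDAC1, with a median of 7.99 over the 55. DNMT1 came after HDAC1 at 55.2 ± 2.0 FPKM (mean ± SD, n = 3), followed by HDAC3 at 40.7 ± 0.99 and SIRT2 at 40.1 ± 4.1, of which the last 2 did not differ beyond their spread. In sh-Ptbp1-3d the median was 7.70 FPKM. By limma 0 of 55 members were called at an adjusted p below 0.05, where 0.0193% of all 15551 genes tested were called higher and 0.0129% lower. At an unadjusted p under 0.05 the count was again 0 of 55, where 7.24% of all genes passed.

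The day 3 log2 fold changes of the members ran from -0.46 for KDM4D to 0.35 for SIRT6, with a median of -0.028 beside 0.01 over all genes. For DNMT1 the change was 0.068 with a 95% interval of -0.091 to 0.23. The intervals were -0.19 to 0.16 for EZH2, -0.16 to 0.17 for HDAC1 and -0.13 to 0.19 for KDM1A. Only HDAC3 and HDAC4 had groups that did not overlap, which is 2 of 55 members (3.64%) where 10.8% of all genes did not overlap. HDAC4, a class IIa deacetylase that shuttles between nucleus and cytoplasm, was at 2.02, 1.8 and 2.11 FPKM in the sh-Luci-3d libraries and 2.44, 2.27 and 2.44 in sh-Ptbp1-3d. Without sh-Luci-3d replicate 3 the calls over all genes went from 5 to 993, or 6.37% of the genes tested, and 3 members were then called. These were SIRT6 (log2 fold change 0.55, adjusted p = 0.0122), a nuclear deacetylase of histone H3, KDM3A (-0.32, adjusted p = 0.0431), a demethylase of H3 lysine 9 (H3K9), and SUZ12 (-0.28, adjusted p = 0.0487), a core PRC2 subunit.

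The comparison of sh-Ptbp1-7d with sh-Ptbp1-3d asks what differed between day 7 and day 3 of the knockdown, and here 14 of the 55 members changed at an adjusted p below 0.01. The H3K27 demethylases KDM6A, KDM6B and KDM7A, the H3K4 demethylase KDM5B, KDM2A, the H3K4 methyltransferases KMT2B and KMT2C and the mitochondrial deacetylase SIRT3 rose. DNMT1, EZH2, HDAC1, HDAC3, HDAC10 and SIRT7 fell. The 8 that rose are 14.5% of the members, where 20.3% of all genes tested rose, and the 6 that fell are 10.9%, where 15.5% of all genes fell, so that neither share was above that of all genes. With a fold change above 2 as well, KDM5B, KDM6A and KDM6B remained, 5.45% of members where 8.31% of all genes passed, and 0 members had fallen, where 5.9% of all genes had. The groups did not overlap for 32 members, or 58.2%, where 62.3% of all genes did not overlap. Over the 55 the median log2 fold change was 0.22, beside 0.092 over all genes. It was above 0 for 36 members, and for 8693 of all 15551 genes tested. Under quantile normalization 7 rose and 8 fell, where 35.9% of all genes were called in either direction.

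**Figure D2:**
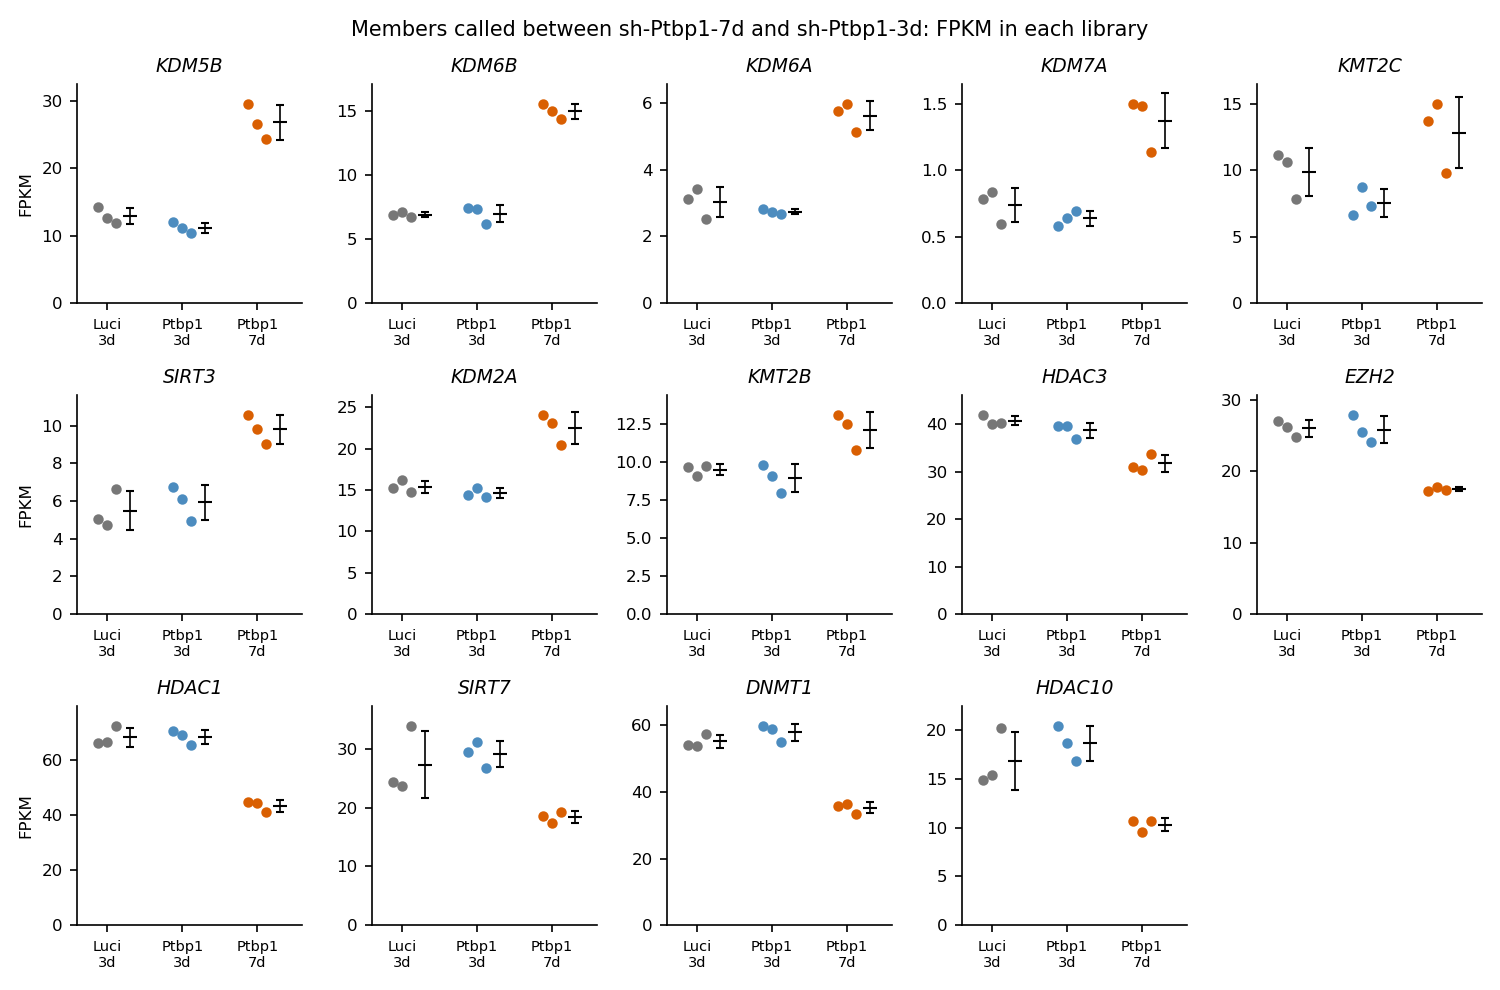
Each panel is a member called between day 7 and day 3 of the knockdown, ordered by its change, with FPKM on the vertical axis from 0, a point for each of 9 libraries, and the mean and SD (n = 3) of each group beside its points. The first 8 panels rose and the last 6 fell, and in none of the 14 does a sh-Ptbp1-7d library overlap with those of sh-Ptbp1-3d.

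Among the DNA methyltransferases, DNMT1 (chr19:10133345-10231286, GRCh38, minus strand) fell and the others did not pass the test. DNMT1 was at 54.1, 54 and 57.5 FPKM in the sh-Luci-3d libraries, 59.7, 59 and 55 in sh-Ptbp1-3d and 35.9, 36.5 and 33.5 in sh-Ptbp1-7d. Every sh-Ptbp1-7d library was below every day 3 library, and the mean was at 0.611 of its sh-Ptbp1-3d level on the fitted scale (log2 fold change -0.71 ± 0.072 SE, adjusted p = 1.60e-05). DNMT3A was at 4.04 ± 0.83 FPKM at day 7, after 2.97 ± 0.16 in sh-Ptbp1-3d (mean ± SD, n = 3; log2 fold change 0.41 ± 0.15 SE, adjusted p = 0.0443). Without sh-Ptbp1-7d replicate 3, where it read 3.11 FPKM against 4.71 and 4.29 in the other 2, DNMT3A passed (log2 fold change 0.58, adjusted p = 0.00374). DNMT3B was at 1.95 ± 0.51 FPKM at day 7, after 1.74 ± 0.25 in sh-Ptbp1-3d (0.14, adjusted p = 0.57).

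The TET dioxygenases gave 0 calls of 3 by limma, where 20.3% of all genes rose and 15.5% fell. TET1 and TET2 were under an unadjusted p of 0.05, where 49.9% of all genes passed 0.05 even after adjustment. TET2 was at 6.31, 6.16 and 3.83 FPKM in the sh-Luci-3d libraries, 5.14, 5.45 and 4.73 in sh-Ptbp1-3d and 10.2, 9.9 and 6.27 in sh-Ptbp1-7d. Day 7 did not overlap with sh-Ptbp1-3d, but sh-Ptbp1-7d replicate 3 lay far below the other 2 libraries, and the change did not pass (log2 fold change 0.74 ± 0.22 SE, adjusted p = 0.0155). Without that library TET2 passed at 0.97 (adjusted p = 0.00339). For TET1 the change was 0.57 (adjusted p = 0.0657) at about 1 FPKM, and for TET3 -0.017.

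In the core of PRC2, EZH2 fell and the other 3 subunits did not pass. EZH2 (chr7:148807383-148884321) was at 27, 26.2 and 24.8 FPKM in the sh-Luci-3d libraries, 27.8, 25.4 and 24.1 in sh-Ptbp1-3d and 17.3, 17.8 and 17.3 in sh-Ptbp1-7d. All 3 libraries of day 7 were below the 6 of day 3, with no overlap (log2 fold change -0.56 ± 0.079 SE, adjusted p = 1.83e-04). EZH1, the paralog that is typical of non-dividing cells, was at 7.1, 6.42 and 6.85 FPKM in the sh-Luci-3d libraries, 6.93, 10.1 and 6.05 in sh-Ptbp1-3d and 12.2, 10.8 and 8.67 in sh-Ptbp1-7d. Its second sh-Ptbp1-3d library reached into the range of day 7, and the change did not pass (log2 fold change 0.47 ± 0.18 SE, adjusted p = 0.05), while without that library it did (log2 fold change 0.68, adjusted p = 0.00512). EED and SUZ12, the subunits that hold the complex together, had log2 fold changes of 0.20 and 0.22 and did not pass.

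Within a library the ratio of EZH2 to EZH1 in FPKM was 3.81, 4.07 and 3.61 in sh-Luci-3d, 4.01, 2.51 and 3.98 in sh-Ptbp1-3d and 1.41, 1.64 and 2 in sh-Ptbp1-7d. All day 7 ratios were below all day 3 ratios, with a difference of -1.04 on the log2 scale from sh-Ptbp1-3d and -1.20 from sh-Luci-3d. The ratio of DNMT1 to DNMT3A was 17.8, 17.3 and 16.9 in sh-Luci-3d, 19.1, 19.8 and 19.6 in sh-Ptbp1-3d and 7.62, 8.51 and 10.8 in sh-Ptbp1-7d. It was lower at day 7 in every library, by 1.14 on the log2 scale against sh-Ptbp1-3d. In the 2-sided exact permutation test each of these comparisons with day 7 gave p = 0.1, the smallest that 3 against 3 libraries allow, and p = 0.12 adjusted over the 6 comparisons made. At day 3 the ratio of EZH2 to EZH1 differed by -0.16 in sh-Ptbp1-3d against sh-Luci-3d (exact permutation p = 0.8). That of DNMT1 to DNMT3A differed by 0.17, and all sh-Ptbp1-3d ratios were above all sh-Luci-3d ratios. Its p was again the smallest possible (exact permutation p = 0.1, adjusted p = 0.12), as for the comparisons with day 7.

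The other histone methyltransferases among the members gave 2 calls of 10, both higher, where 20.3% of all genes rose and 15.5% fell. SUV39H1, which trimethylates H3K9 in heterochromatin, was at 4.48, 4.38 and 5.92 FPKM in the sh-Luci-3d libraries, 6.31, 5.07 and 4.82 in sh-Ptbp1-3d and 5.08, 4.97 and 4.54 in sh-Ptbp1-7d. The groups overlapped (-0.14, adjusted p = 0.45), as they did for its paralog SUV39H2 (-0.026). KMT2C, the catalytic subunit of a complex that monomethylates H3K4 at enhancers, was at 11.2, 10.6 and 7.85 FPKM in the sh-Luci-3d libraries, 6.62, 8.74 and 7.29 in sh-Ptbp1-3d and 13.8, 15 and 9.82 in sh-Ptbp1-7d. Its day 7 libraries were all above those of sh-Ptbp1-3d but overlapped with sh-Luci-3d (log2 fold change 0.75 ± 0.18 SE, adjusted p = 0.00583). KMT2B rose, with 8.97 ± 0.92 FPKM in sh-Ptbp1-3d and 12.1 ± 1.2 in sh-Ptbp1-7d (mean ± SD, n = 3; log2 fold change 0.43 ± 0.11 SE, adjusted p = 0.00614). Neither call held without every one of its libraries. KMT2C was lost without replicate 1 or 3 of sh-Ptbp1-3d or replicate 1 or 2 of sh-Ptbp1-7d (adjusted p from 0.0214 to 0.0275), and KMT2B without replicate 2 or 3 of sh-Ptbp1-3d or replicate 1 or 2 of sh-Ptbp1-7d (0.0183 to 0.0297). Both were also lost with no filter on low values and with no variance trend, and KMT2B under quantile scaling (adjusted p from 0.0103 to 0.0336).

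KMT2D, which shares the enhancer role of KMT2C, read 7.07, 7.06 and 6.38 FPKM in sh-Ptbp1-3d and 12.6, 10.7 and 6.10 in sh-Ptbp1-7d. The last of these was below every day 3 library, so the groups overlapped (log2 fold change 0.45 ± 0.21 SE, adjusted p = 0.0973), and without it the gene passed (log2 fold change 0.76, adjusted p = 3.86e-04). In that fit 30.8% of all genes were called. KMT2A and KMT2E had log2 fold changes of -0.08 and 0.29. Of the H4 lysine 20 (H4K20) methyltransferases, KMT5C, which places the trimethyl mark, was at 4.63, 4.88 and 7.26 FPKM in the sh-Luci-3d libraries, 6.57, 6 and 5.68 in sh-Ptbp1-3d and 8.79, 9.54 and 8.76 in sh-Ptbp1-7d. The day 7 libraries were highest without overlap, and the change missed the threshold narrowly (log2 fold change 0.56 ± 0.15 SE, adjusted p = 0.0112), passing under 5 alternatives, TPM scaling among them (adjusted p = 0.00361). KMT5A and KMT5B, at 0.037 and 0.086, did not pass.

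The demethylases held the largest changes. KDM5B (chr1:202724495-202809470, minus strand), which removes methyl groups from H3K4, was at 14.2, 12.6 and 11.8 FPKM in the sh-Luci-3d libraries, 11.9, 11.1 and 10.4 in sh-Ptbp1-3d and 29.4, 26.6 and 24.3 in sh-Ptbp1-7d. The lowest library of day 7 lay well above the highest of day 3, a fold change of 2.39 (log2 fold change 1.26 ± 0.1 SE, adjusted p = 3.52e-06). Its paralogs KDM5A and KDM5C had log2 fold changes of 0.29 (adjusted p = 0.24) and 0.22 (adjusted p = 0.0937).

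The H3K27 demethylases were all called higher, 3 of 3, where 20.3% of all genes rose. They were also called higher under each scaling tried, where 34.7% to 35.9% of all genes were called in either direction. KDM6B (chr17:7839904-7854796) was at 6.87, 7.1 and 6.68 FPKM in the sh-Luci-3d libraries, 7.39, 7.35 and 6.18 in sh-Ptbp1-3d and 15.5, 14.9 and 14.4 in sh-Ptbp1-7d. Its day 7 libraries were close to each other and apart from all 6 of day 3, a fold change of 2.13 (log2 fold change 1.09 ± 0.095 SE, adjusted p = 5.53e-06). KDM6A (chrX:44873177-45112602), which also sits in the KMT2C and KMT2D complexes, was at 3.11, 3.41 and 2.53 FPKM in the sh-Luci-3d libraries, 2.83, 2.73 and 2.67 in sh-Ptbp1-3d and 5.77, 5.96 and 5.13 in sh-Ptbp1-7d. There was again no overlap, with a fold change of 2.01 (log2 fold change 1.01 ± 0.13 SE, adjusted p = 9.54e-05), just above the limit of 2, and its log2 fold change ran from 0.82 to 1.12 over the alternatives tried. KDM7A, which acts on dimethylated H3K27 and H3K9, was low throughout, at 0.739 ± 0.13 FPKM in sh-Luci-3d, 0.639 ± 0.058 in sh-Ptbp1-3d and 1.37 ± 0.21 in sh-Ptbp1-7d (mean ± SD, n = 3), a fold change of 1.98 (log2 fold change 0.99 ± 0.19 SE, adjusted p = 0.00165).

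KDM2A (chr11:67119269-67258087), a demethylase of H3 lysine 36 (H3K36) that binds unmethylated CpG DNA, was at 15.3, 16.2 and 14.7 FPKM in the sh-Luci-3d libraries, 14.4, 15.3 and 14.1 in sh-Ptbp1-3d and 24, 23.1 and 20.4 in sh-Ptbp1-7d. It was higher in each day 7 library than in any of day 3 (log2 fold change 0.62 ± 0.087 SE, adjusted p = 1.70e-04). Its paralog KDM2B had a negative value that did not pass (-0.21, adjusted p = 0.132), and KDM8 was at 0.27.

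KDM1A, the flavin-dependent demethylase also known as LSD1, was at 23.6, 22.2 and 23.3 FPKM in the sh-Luci-3d libraries, 23.5, 24 and 22.9 in sh-Ptbp1-3d and 22.1, 24 and 24.1 in sh-Ptbp1-7d. The 3 groups overlapped fully, and the 95% interval of its log2 change was -0.16 to 0.16. Its paralog KDM1B was at 4.99, 5.33 and 3.45 FPKM in the sh-Luci-3d libraries, 4.02, 5.07 and 4.24 in sh-Ptbp1-3d and 3.7, 3.62 and 2.72 in sh-Ptbp1-7d. It was lower in each day 7 library than in any of sh-Ptbp1-3d but not than in sh-Luci-3d, and did not pass (log2 fold change -0.40 ± 0.18 SE, adjusted p = 0.0892).

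Of the H3K9 demethylases of the KDM3 and KDM4 families, 0 of 6 tested were called in limma, where 20.3% of all genes rose and 15.5% fell. KDM3A, KDM4C and KDM4D were under an unadjusted p of 0.05, where 49.9% of all genes passed 0.05 even after adjustment. KDM3A was at 13.1, 13.3 and 9.76 FPKM in the sh-Luci-3d libraries, 10.5, 11.3 and 9.87 in sh-Ptbp1-3d and 13.7, 13.5 and 13 in sh-Ptbp1-7d. Day 7 lay above sh-Ptbp1-3d without overlap, and overlapped with sh-Luci-3d (log2 fold change 0.34 ± 0.12 SE, adjusted p = 0.0367). KDM4C, a demethylase of H3K9 and H3K36, was at 12.9, 13.4 and 11.3 FPKM in the sh-Luci-3d libraries, 12.3, 12.5 and 11.7 in sh-Ptbp1-3d and 15.5, 15.6 and 12.6 in sh-Ptbp1-7d (log2 fold change 0.25 ± 0.11 SE, adjusted p = 0.0684). The remaining log2 fold changes were 0.13 for KDM3B, 0.035 for KDM4A, 0.11 for KDM4B and 0.64 for KDM4D, a gene below 1.2 FPKM in every library.

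**Figure D3:**
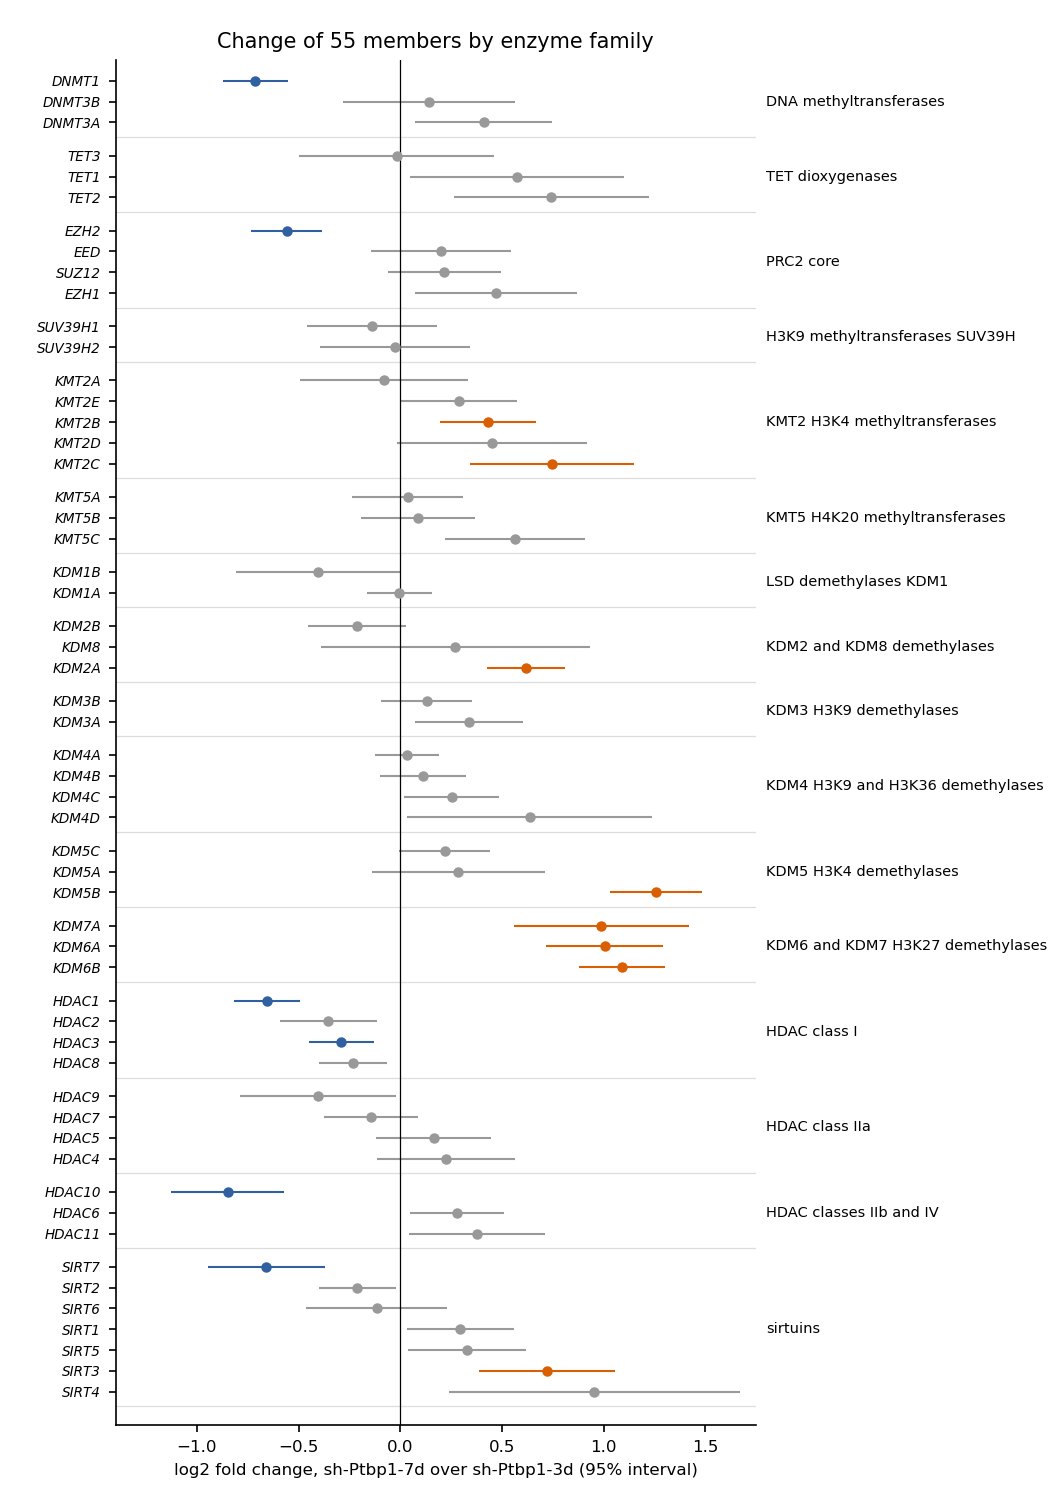
The log2 fold change of sh-Ptbp1-7d over sh-Ptbp1-3d is plotted for the 55 tested members with its 95% interval, grouped by enzyme family, with members called higher in orange, lower in blue and the others in grey. All 3 H3K27 demethylases lie near 1, all 4 class I deacetylases lie below 0, and DNMT1 and EZH2 lie apart from the rest of their families.

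The 4 class I deacetylases, among them the nuclear enzymes of the SIN3, NuRD and NCoR complexes, all had a negative change, also under each scaling tried. The number that passed was 2, against 1 under TPM scaling, which sets every library to the same total, and 4 under median-ratio and under quantile scaling. Over all genes 15.5% fell in the main fit. With TPM, median-ratio and quantile scaling 34.7%, 35.9% and 35.9% of all genes were called in either direction. HDAC1 (chr1:32292086-32333635) was at 66.2, 66.4 and 72.3 FPKM in the sh-Luci-3d libraries, 70.5, 69.3 and 65.5 in sh-Ptbp1-3d and 44.8, 44.4 and 40.9 in sh-Ptbp1-7d. Each day 7 library was below all of day 3 (log2 fold change -0.66 ± 0.073 SE, adjusted p = 3.36e-05). HDAC3, the enzyme of the NCoR complexes, fell less, with 38.8 ± 1.6 FPKM in sh-Ptbp1-3d and 31.7 ± 1.8 in sh-Ptbp1-7d (mean ± SD, n = 3; log2 fold change -0.29 ± 0.073 SE, adjusted p = 0.00708). That call was lost when any sh-Ptbp1-3d library, replicate 1 or 2 of sh-Luci-3d or replicate 1 or 2 of sh-Ptbp1-7d was left out (adjusted p from 0.0107 to 0.0375), and also under TPM scaling (-0.19, adjusted p = 0.0383) and with no variance trend (adjusted p = 0.0181). HDAC2 (-0.35, adjusted p = 0.0183) and HDAC8 (-0.23, adjusted p = 0.025) did not pass, though neither overlapped between groups. Both passed under median-ratio scaling, under quantile scaling and without sh-Luci-3d replicate 3, and HDAC8 also with no filter on low values.

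Class IIa gave 0 calls of 4 by limma, where 20.3% of all genes rose and 15.5% fell. HDAC9 alone was under an unadjusted p of 0.05, where 49.9% of all genes passed 0.05 even after adjustment. HDAC9 was at 17.4, 18 and 11.5 FPKM in the sh-Luci-3d libraries, 12, 13.2 and 14.8 in sh-Ptbp1-3d and 10.5, 11.3 and 8.47 in sh-Ptbp1-7d. The day 7 libraries were lowest without overlap, and the change did not pass (log2 fold change -0.40 ± 0.17 SE, adjusted p = 0.0742), here or under any of the 20 alternatives run. HDAC4, HDAC5 and HDAC7 had changes of 0.22, 0.17 and -0.14. In classes IIb and IV, HDAC10 (chr22:50245183-50251405, minus strand), a polyamine deacetylase, was at 14.9, 15.3 and 20.2 FPKM in the sh-Luci-3d libraries, 20.4, 18.7 and 16.8 in sh-Ptbp1-3d and 10.7, 9.52 and 10.7 in sh-Ptbp1-7d. No day 7 library reached the lowest of day 3, and this was the largest fall among the members (log2 fold change -0.85 ± 0.13 SE, adjusted p = 2.51e-04). HDAC6, the cytoplasmic tubulin deacetylase, and HDAC11 lay on the other side at 0.28 (adjusted p = 0.0446) and 0.38 (adjusted p = 0.0583).

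The sirtuins, which need NAD to work, gave a call in each direction among 7 tested, where 20.3% of all genes rose and 15.5% fell. SIRT7, a nucleolar sirtuin, was at 24.3, 23.7 and 33.9 FPKM in the sh-Luci-3d libraries, 29.5, 31.2 and 26.8 in sh-Ptbp1-3d and 18.5, 17.4 and 19.4 in sh-Ptbp1-7d. All day 7 libraries were below all of day 3, and sh-Luci-3d replicate 3 was the highest of the 9 (log2 fold change -0.66 ± 0.13 SE, adjusted p = 0.00165). With no filter on low values the call was lost (adjusted p = 0.0122). SIRT3, in mitochondria, rose, with 5.93 ± 0.92 FPKM in sh-Ptbp1-3d and 9.8 ± 0.76 in sh-Ptbp1-7d (mean ± SD, n = 3; log2 fold change 0.72 ± 0.15 SE, adjusted p = 0.00243), a call lost without sh-Ptbp1-3d replicate 3 (adjusted p = 0.0114) or sh-Ptbp1-7d replicate 1 (adjusted p = 0.0121) and with no filter on low values (adjusted p = 0.0141). Changes of the others were 0.30 for SIRT1, -0.21 for SIRT2, 0.95 for SIRT4, 0.33 for SIRT5 and -0.12 for SIRT6. SIRT4, with the widest interval of all members (0.24 to 1.67), was at 0.876 ± 0.39 FPKM at day 7, after 0.39 ± 0.15 in sh-Ptbp1-3d (mean ± SD, n = 3).

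Leaving out a library moved the number of members that rose from 8 to 5 without sh-Ptbp1-3d replicate 3 or sh-Ptbp1-7d replicate 1, and to 12 without sh-Luci-3d replicate 3, when 9 fell. Over all genes 28.8%, 28.5% and 43.3% were called in either direction in these fits. DNMT1, EZH2, HDAC1, HDAC10, KDM2A, KDM5B, KDM6A and KDM6B were called in this comparison under each of the 20 alternatives run, and KDM7A under the 19 in which it was tested.

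Some called members share exon sequence with a neighbour in GENCODE v29, and how shared reads were counted is not given in the sources used here. On the same strand these pairs are DNMT1 with S1PR2, HDAC10 with MAPK12 and SIRT7 with MAFG. On the opposite strand they are SIRT3 with PSMD13, KMT2B with IGFLR1, KMT2C with FABP5P3 and HDAC3 with AC008781.1. HDAC1 and EZH2 have annotated processed pseudogenes. The levels of these members are uncertain to that extent. None of the 2363 assembled loci was found to overlap a member by position. How those loci were chosen was not examined, so this does not bear on the shared exons above.

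To set the members that moved furthest beside their DNA, the bases upstream of the RefSeq start (GRCh38.p14) are shown for HDAC10, DNMT1 and HDAC1, which had the lowest changes among members with an entry (SIRT7, between DNMT1 and HDAC1, has none), and for KDM6B, of the 2 with the highest. Bases annotated as untranslated exon in GENCODE were left out, which leaves none for KDM5B, 110 of 250 for HDAC10 and 68 of 250 for DNMT1, and KDM6B has a further RefSeq start that is not shown. They run 5′ to 3′ on the gene's strand, at chr22:50251406-50251515, chr19:10195136-10195203, chr1:32291833-32292082 and chr17:7833967-7834216, with CCAAT on either strand in capitals. RefSeq starts can differ from the GENCODE spans given above. The DNMT1 bases lie inside the GENCODE span of that gene, and the KDM6B bases end before its GENCODE start at 7839904.
HDAC10: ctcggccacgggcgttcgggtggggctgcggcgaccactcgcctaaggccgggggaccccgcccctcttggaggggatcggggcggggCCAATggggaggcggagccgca
DNMT1: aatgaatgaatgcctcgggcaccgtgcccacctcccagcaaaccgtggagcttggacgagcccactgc
HDAC1: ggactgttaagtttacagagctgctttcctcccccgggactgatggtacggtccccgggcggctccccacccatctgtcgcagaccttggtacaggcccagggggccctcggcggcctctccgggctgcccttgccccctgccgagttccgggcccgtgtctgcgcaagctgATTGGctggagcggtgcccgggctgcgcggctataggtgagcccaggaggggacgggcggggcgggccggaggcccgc
KDM6B: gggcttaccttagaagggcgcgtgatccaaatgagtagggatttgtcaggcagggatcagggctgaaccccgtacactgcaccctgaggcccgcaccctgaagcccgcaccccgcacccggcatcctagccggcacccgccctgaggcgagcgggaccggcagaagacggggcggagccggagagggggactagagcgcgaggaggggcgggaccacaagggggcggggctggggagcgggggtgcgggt

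The full 250 bases were rich in G and C, at 78% for HDAC10, 66.8% for DNMT1, 71.6% for HDAC1, 70.4% for KDM6B and 64% for KDM5B, beside a median of 58% over 27305 genes. The median over the 53 tested members with an entry was 66.8%, so this is not particular to the members shown. CCAAT, searched on both strands in the 250 bases, was found at 3 of the 5 members that fell and have an entry (HDAC10, HDAC1 and EZH2) and at 1 of the 8 that rose (KDM6A), where 32% of 35116 RefSeq windows and 35.8% of the 53 tested members held it. The letters TTTCCCGC and TTTGGCGC, forms of the E2F motif, and TTTGAA, that of the cell cycle homology region, were found at 0 of these 13, where 1.39%, 0.55% and 13.3% of all windows held them. Among 53 tested members with an entry, TTTCCCGC was found at KDM1B, SIRT6 and SUZ12. A match is only a description of the letters.

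The comparison of sh-Ptbp1-7d with sh-Luci-3d shares its day 7 libraries with the one above, and gives the day 7 levels against the control of day 3. In it 10 members rose (18.2%, where 20.6% of all genes rose) and 6 fell (10.9%, where 15% of all genes fell), a split that was 7 and 9 under median-ratio scaling and 5 and 10 under quantile normalization, where 35.9% and 36.7% of all genes were called. The 6 that fell were DNMT1 (-0.64), EZH2 (-0.57), HDAC1 (-0.65), HDAC3 (-0.36), HDAC10 (-0.69) and SIRT7 (-0.55). Those that rose were KDM6B (1.11), KDM5B (1.05), KDM6A (0.88), SIRT3 (0.84), KDM7A (0.81), KMT5C (0.71), HDAC11 (0.60), KDM2A (0.54), SIRT5 (0.50) and HDAC6 (0.40). Only KDM5B and KDM6B passed a fold change of 2, 3.64% of members where 8.93% of all genes passed, and 0 fell by as much, where 5.68% of all genes did. The groups did not overlap for 23 members, or 41.8%, where 55.9% of all genes did not overlap.

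KMT2B and KMT2C, called against sh-Ptbp1-3d, did not pass against sh-Luci-3d (0.34, adjusted p = 0.0194, and 0.37, adjusted p = 0.114). HDAC6, HDAC11, KMT5C and SIRT5 passed only against sh-Luci-3d, and for each the sign was the same in the other comparison. Leaving out a library ended several of these calls, and the number of members called went from 16 to 10 without sh-Ptbp1-7d replicate 1 or without replicate 2. HDAC11 was lost without any library but sh-Luci-3d replicate 3 (adjusted p up to 0.0335) and HDAC6 without any but sh-Luci-3d replicate 3 and sh-Ptbp1-7d replicate 2 (up to 0.0343). SIRT5 was lost without replicate 2 or 3 of sh-Luci-3d, replicate 3 of sh-Ptbp1-3d or any sh-Ptbp1-7d library (up to 0.0349). KDM7A was lost without replicate 1 or 3 of sh-Luci-3d or replicate 1 or 2 of sh-Ptbp1-7d (up to 0.0251), and KMT5C without replicate 1 or 2 of sh-Luci-3d or replicate 2 of sh-Ptbp1-7d (up to 0.0142). SIRT7 was lost without any sh-Ptbp1-7d library (up to 0.0222), and HDAC3 without replicate 1 or 2 of that group (up to 0.0126). Median-ratio and quantile scaling, no filter on low values, no variance trend and a fit of only the groups compared each ended the calls of HDAC6, HDAC11 and SIRT5 (adjusted p up to 0.0491). The fit of only the groups compared also ended those of KDM7A, KMT5C and SIRT7, quantile scaling those of KDM7A and KMT5C, no filter those of KMT5C and SIRT7, and no variance trend that of SIRT7 (adjusted p up to 0.0253).

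Partners of the members were counted from lists of related genes, between day 7 and day 3 of the knockdown, as the plot of calls by list shows. Each count stands beside the share over all genes tested, of which 20.3% were called higher and 15.5% lower. Whether a list differed from that share was not tested. Histone acetyltransferases, which place the marks that HDACs remove, had 5 of 10 higher and 0 lower (median log2 fold change 0.36). KAT2A, the catalytic subunit of the SAGA complex, rose by 0.76 and KAT8, which acetylates histone H4 lysine 16, by 0.68. Subunits of PRC1, the complex that reads and adds to Polycomb silencing, had 4 of 16 higher and 0 lower (median 0.31), led by PCGF5 (0.85) and PCGF2 (0.78). Under TPM scaling 8 were higher, where the median of all genes was 0.19 in place of 0.092 and 34.7% of all genes were called in either direction.

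PRC2 accessory subunits split, with 3 of 7 higher and 2 lower (median 0.30). PHF1 rose by 0.97 and JARID2 by 0.64, while PHF19, a Polycomb-like paralog of PHF1, was at 23.7, 26.1 and 26.9 FPKM in the sh-Luci-3d libraries, 27.6, 27.6 and 24.9 in sh-Ptbp1-3d and 12, 12.5 and 11.5 in sh-Ptbp1-7d. That is a fall without overlap (log2 fold change -1.15 ± 0.083 SE, adjusted p = 1.43e-06), and the histone-binding subunit RBBP7 fell with it (-0.55). Of DNA methylation cofactors and readers 0 of 10 were higher and 2 lower (median -0.13). UHRF1, which brings DNMT1 to newly copied DNA, was at 21, 19.8 and 24.4 FPKM in the sh-Luci-3d libraries, 24.9, 23.7 and 22.1 in sh-Ptbp1-3d and 9.83, 10.1 and 8.48 in sh-Ptbp1-7d. It fell in each day 7 library (log2 fold change -1.31 ± 0.1 SE, adjusted p = 2.78e-06), as did the remodeller HELLS (log2 fold change -1.30 ± 0.13 SE, adjusted p = 1.70e-05).

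Other histone methyltransferases had 2 of 18 higher and 5 lower (median 0.058), with SETDB1 (0.38) and PRMT5 (0.29) up and SMYD3 (-0.71) and SETD1B (-0.57) furthest down. Under TPM scaling this list turned to 5 higher and 4 lower, and under median-ratio scaling to 0 higher and 6 lower. In those fits 34.7% and 35.9% of all genes were called in either direction. Other JmjC demethylases had 3 of 6 higher and 0 lower (median 0.43). HR, a corepressor and H3K9 demethylase, was at 1.3, 1.33 and 1.43 FPKM in the sh-Luci-3d libraries, 1.38, 1.2 and 1.4 in sh-Ptbp1-3d and 12.3, 11.3 and 10.7 in sh-Ptbp1-7d, the largest change in any of these lists (log2 fold change 3.02 ± 0.12 SE, adjusted p = 2.15e-08). PHF2 rose by 0.79. HDAC corepressor scaffolds had 3 of 15 higher and 3 lower (median 0.13), with TBL1X (1.57) and GATAD2B (0.65) up and CHD3 (-1.62) and SAP30 (-1.31) down. The shared subunits of the KMT2 complexes had 2 of 9 higher, NCOA6 (0.53) and the member KDM6A, and 0 lower (median 0.14).

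**Figure D4:**
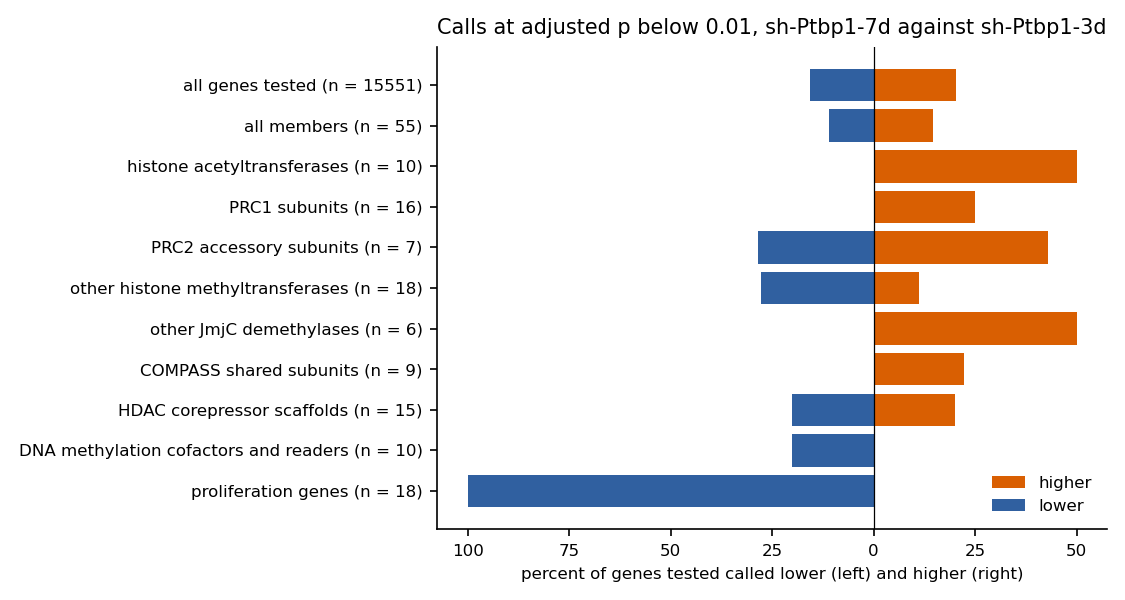
Bars give the percent of tested genes in each list that were called lower (left) and higher (right) at an adjusted p below 0.01 between day 7 and day 3 of the knockdown, with the number tested in brackets. Members lie below all genes on both sides, histone acetyltransferases and PRC1 subunits have no gene on the lower side, and all 18 proliferation genes are on it.

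Proliferation genes fell in the same comparison as the members DNMT1, EZH2, HDAC1, HDAC3, HDAC10 and SIRT7, where 15.5% of all genes fell. All 18 of that list fell from sh-Ptbp1-3d to sh-Ptbp1-7d, at a median of -1.01 on the log2 scale, and their summed level ran from 820 to 828 FPKM in sh-Luci-3d, 791 to 837 in sh-Ptbp1-3d and 395 to 409 in sh-Ptbp1-7d. Under the TPM scaling and under quantile normalization 17 of the 18 were called, where 34.7% and 35.9% of all genes were called in either direction. The part of these genes in the changes of the members was not tested. The genes whose pattern over the 9 libraries was most like that of EZH2, among 11339 with a mean of at least 1 FPKM, were TTC27 (Pearson r = 0.9934), PDK3 (0.991), MTCP1 (0.9909), BHLHE41 (0.9908) and IARS2 (0.9906). The 9 points share 3 groups, so that any gene with a step at day 7 of like size ranks high, and these values are a description.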

How the data were processed

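Expression was measured by RNA-seq in 9 libraries of U251 cells, 3 in each of 3 groups named by the labels. The authors deposited 1 table of FPKM, in which genes are named by symbol and further loci were assembled. Their processing notes name HISAT2 and GRCh38. The program that counted fragments and its strand setting are not given in the sources used here. The table holds no counts, so depth and counting error are unknown. A deposited list of positions of assembled loci was used only to look for overlap with members. FPKM also depends on the other genes of a library, and a shift in abundant transcripts moves all values.

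FPKM values were taken as log2(FPKM + 0.1), which understates the change of low genes. The 15551 entries with a mean of at least 0.1 FPKM were fitted in limma 3.58.1 (R 4.3.3) with a mean for each group over all 9 libraries and a trended empirical Bayes variance. P-values were adjusted by Benjamini and Hochberg over all entries tested. A gene was called at an adjusted p below 0.05 at day 3 and below 0.01 in both day 7 comparisons, and a fold change above 2 was counted separately. The fitting code was tested on simulated data. Ratios were compared with exact permutation tests in scipy 1.17.1. Values in every library are given for members called with a fold above 2, the member of each family with the smallest adjusted p between day 7 and day 3 of the knockdown, and DNMT1, EZH2, EZH1, HDAC1 and KDM1A. From related lists at most 2 called genes in each direction are named, by size of change. HDAC4, KMT2D and the values of DNMT3A by library fall outside these rules and were chosen after their values were seen. Positions and exon overlaps came from GENCODE 29 and promoters from RefSeq (GRCh38.p14).

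The members and lists were chosen with earlier results of these data known. One marker of the blood and immune list is not reported here. Alternatives covered the pseudocount, the filter, the scaling (TPM, median-ratio, quantile), the libraries fitted, the variance trend, the replicate number as a block and each library left out.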

Additional observations from a re-analysis of the deposited data

How the results depend on the processing

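The number of members called ran from 0 to 3 at day 3, from 10 to 21 between day 7 and day 3 of the knockdown and from 10 to 21 between day 7 and the control when each library was left out in turn, where the share of all genes called ran from 0.00642% to 6.37%, 27.5% to 43.3% and 28% to 39.8%. At an adjusted p below 0.05, chosen after seeing the data, the day 7 comparisons called 22 and 24 of 55 members, where 49.9% and 49.8% of all genes were called. The fall of PTBP1 at day 3 (-0.85) did not pass with only its groups fitted (adjusted p = 0.0821) or with the replicate block (adjusted p = 0.0583). Values near 0 changed sign, for which the cause was not tested. Between day 7 and day 3 of the knockdown KDM1A was 0.097 with TPM and -0.027 to 0.037 without 1 library. Against sh-Luci-3d it was -0.078 with median-ratio scaling, -0.046 with quantile normalization and -0.0030 to 0.064 without 1 library, and SUV39H1 was 0.074 with TPM and -0.082 to 0.13 without 1 library. Single members and settings kept direction and call in 840 cases, lost the call in 85, gained it in 23 and changed sign in 10. The median log2 fold change of all genes between day 7 and day 3 of the knockdown was 0.092, and 0.19, 0.0096 and -0.0087 with TPM, median-ratio and quantile scaling. Over all genes at day 3, the 5 calls became 11 with no filter, 0 with only the groups compared or with the replicate block, and 1 to 993 without 1 library.

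Replicate numbers are shared between groups but deviations of libraries with the same number had correlations of -0.032 to 0.051, and 3 of 9 libraries correlated best with their own number, so the numbers were not taken to pair them. With the replicate block 0 members were called at day 3, 14 between day 7 and day 3 of the knockdown (9 higher and 5 lower) and 15 between day 7 and the control, where 0%, 34.2% and 34.7% of all genes were called. The block fit did not call HDAC3 between day 7 and day 3 of the knockdown (adjusted p = 0.0152) or HDAC11 (adjusted p = 0.0158) and SIRT5 (adjusted p = 0.0111) between day 7 and the control, and it called TET2 in both. The deposited values give no depth, so the lowest members, under 1 FPKM, have an unknown counting error.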
